A study of Rattus norvegicus with 24 samples.

Results

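Axon guidance ligands and receptors were followed across nucleus accumbens (NAc) samples of rats given methamphetamine (METH) or saline on 2 occasions. Members were the array probes whose annotated gene symbol names a semaphorin, a plexin, a neuropilin, an ephrin, an Eph receptor, a Slit, a Robo, netrin 1 or 4, Dcc or an Unc5 receptor. They came to 55 of 22523 probes, for 53 of the 13337 genes with a symbol, and 42 of them (42 genes) gave a signal above background on at least 4 of the 24 arrays and were tested. The symbol rule also admits Unc50 and Unc5cl, and Unc50 is no netrin receptor. Neither passed the test in any comparison.

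The animals were male Sprague-Dawley rats. Their first injection was METH at 10 mg/kg or saline, the second followed a month on with METH at 2.5 mg/kg or saline, and tissue was taken 2 h after it. MM rats (7 arrays) received METH on both occasions, MS rats (7 arrays) METH and then saline, SM rats (6 arrays) saline and then METH, and SS rats (4 arrays) saline on both. The labels call the tissue NAc in one place and striatal tissue in another, give no age, and do not say whether each array came from a separate rat, so that p-values measure the spread between these samples. Each array carried RNA of bulk tissue, in which fewer cells of a type and less RNA per cell cannot be told apart.

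These proteins steer growing axons and, in the adult brain, act on synapses and dendritic spines. Semaphorins signal through plexins, some of them with a neuropilin as co-receptor. Ephrins sit in the membrane of one cell and bind Eph receptors of the next, Slits are secreted repellents for Robo receptors, and netrin 1 attracts through Dcc or repels through Unc5 receptors.

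Of the 53 genes, 41 matched an entry in RefSeq's set of promoters (GRCr8), each taken as 250 bases before to 50 bases after the gene's start. The promoters of 3 members are printed here because Sema7a and Slit3 held the largest decreases and Epha5 the largest increase against SS. They lie at chr8:67244068-67244367 (Sema7a), chr10:20075679-20075978 (Slit3) and chr14:24007872-24008171 (Epha5), all on the + strand, and run 5′ to 3′ with GC boxes (the letters GGGCGG on either strand, the site of Sp1-type factors) in capitals.
Sema7a: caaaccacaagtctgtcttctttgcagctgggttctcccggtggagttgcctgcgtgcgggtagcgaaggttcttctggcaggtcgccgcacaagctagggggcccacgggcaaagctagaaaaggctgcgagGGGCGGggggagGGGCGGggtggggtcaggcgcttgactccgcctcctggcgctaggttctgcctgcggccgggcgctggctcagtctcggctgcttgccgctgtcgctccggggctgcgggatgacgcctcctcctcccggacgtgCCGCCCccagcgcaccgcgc
Slit3: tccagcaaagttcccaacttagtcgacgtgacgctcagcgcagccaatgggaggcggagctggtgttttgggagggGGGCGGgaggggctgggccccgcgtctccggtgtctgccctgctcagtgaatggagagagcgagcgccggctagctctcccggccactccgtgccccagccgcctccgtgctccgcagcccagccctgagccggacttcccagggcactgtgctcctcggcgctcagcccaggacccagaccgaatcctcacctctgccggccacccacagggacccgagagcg
Epha5: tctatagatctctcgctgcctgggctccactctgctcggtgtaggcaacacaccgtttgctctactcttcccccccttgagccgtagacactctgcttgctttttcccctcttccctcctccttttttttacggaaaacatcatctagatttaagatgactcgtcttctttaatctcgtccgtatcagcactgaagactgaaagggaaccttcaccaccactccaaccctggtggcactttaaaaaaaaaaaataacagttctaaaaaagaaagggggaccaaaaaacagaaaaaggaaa

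The Sema7a window held 3 GC boxes and 28 CpG dinucleotides, the Slit3 window 1 GC box and 24 CpG, and the Epha5 window no GC box and 8 CpG. Among the 11 called genes with an entry, 7 held a GC box (63.6%), as did 22 of the 41 members (53.7%) and 33.1% of all 33469 promoters of that length. The cAMP response element to which CREB binds (TGACGTCA, both strands) was in 1.83% of all promoters and in that of 1 member, Epha2, whose probe was not tested. The AP-1 letters TGANTCA were in 7.33% of all promoters and in 1 member, Epha10, also not tested, and the EGR letters GCGNGGGCG were in 4.98% of all promoters and in 4 members, of which Plxnb2 was the only called gene. An EGR match can overlap a GC box. Members' windows held a median of 18 CpG, against 7 over all promoters. A match is a description of the letters in these windows.

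Before the results, 3 arrays stood apart: SS 1, MS 1 and SM 3 had array weights of 0.34, 0.32 and 0.25, where a weight of 1 is typical. Detection covered 49.4% to 53.8% of probes per array, and median intensity ran over 10.0 to 23.0 units before scaling. Without those 3 arrays the number of members called was 16 for MM against SS, 12 for MS against SS and 12 for SM against SS, and with them it was 14, 10 and 10. Calls were made with limma across all 12956 tested probes, at an adjusted p under 0.05. All 3 of these comparisons use the same 4 SS arrays, so they are not independent of each other. Within slide 1, which holds 2 SS arrays, 4, 4 and 2 members were called in MM, MS and SM against SS, and within slide 2 there were 14, 11 and 9. With the authors' unscaled log2 matrix the counts were 8, 3 and 3. The share of all tested probes called under these alternatives was not counted, so the counts describe the members alone.

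Tissue markers also differed between the groups. The medium spiny neuron list, the main cell type of the NAc, had all 21 of its measured genes above background. Of these, 18 were lower in MM than in SS, 18 in MS and 16 in SM. Isl1 was the 1 called higher, in MS (0.35, limma adjusted p = 0.0238). The list averaged 9.94 to 10.20 (log2 level per array) in MM, 10.04 to 10.24 in MS, 10.14 to 10.38 in SM and 10.64 to 10.82 in SS. Hypothalamic and preoptic markers ran the other way, with 7 of 14 tested genes higher in MM, 9 in MS and 7 in SM than in SS, and list means of 6.87 to 7.14 in MM, 6.70 to 7.29 in MS, 6.77 to 7.12 in SM and 6.20 to 6.68 in SS. Six3 of that list was lower than in SS in MM (-0.49, limma adjusted p = 0.00504) and in MS (-0.39, 0.0296). Of that list Hcrt, Six6, Nkx2-1 and Sim1 were not above background. Oligodendrocyte markers averaged 8.87 to 9.12 in MM, 8.93 to 9.12 in MS, 8.65 to 8.98 in SM and 9.16 to 9.32 in SS, with 5, 5 and 10 of 15 genes lower than in SS. Among them Opalin was higher in MS (0.60, limma adjusted p = 0.0385). Endothelial and mural markers averaged 6.90 to 7.02 in MM, 6.84 to 7.08 in MS, 6.91 to 7.15 in SM and 7.25 to 7.45 in SS, with 4, 3 and 4 of 7 genes lower. Markers of basal forebrain cholinergic neurons, the septum and the bed nucleus averaged 7.46 to 7.67 in MM, 7.26 to 7.78 in MS, 7.22 to 7.60 in SM and 6.84 to 7.08 in SS, with 5, 5 and 2 of 8 genes higher than in SS, and Esr1 was not above background. These 5 lists separated the SS arrays from every array of the other groups, as Sema7a, Slit3 and Efnb3 did. The glutamatergic cortex, GABA interneuron, astrocyte, microglia and choroid plexus lists did not, as each had arrays of another group within the SS range. Single genes in them still differed from SS. In MM, MS and SM, 2, 5 and 1 of 8 cortex genes were lower and none higher. Of 11 interneuron genes 4, 4 and 4 were higher and 1, 2 and 1 lower. Of 9 astrocyte genes 3, 2 and 2 were higher, and Gfap was lower in each group. Of 4 choroid plexus genes 3, 1 and 1 were higher, and Ttr was lower in MS. No microglia gene was called. How many of all tested probes separate SS from the other groups was not counted. The part of any list in the members' results was not tested.

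**Figure D1:**
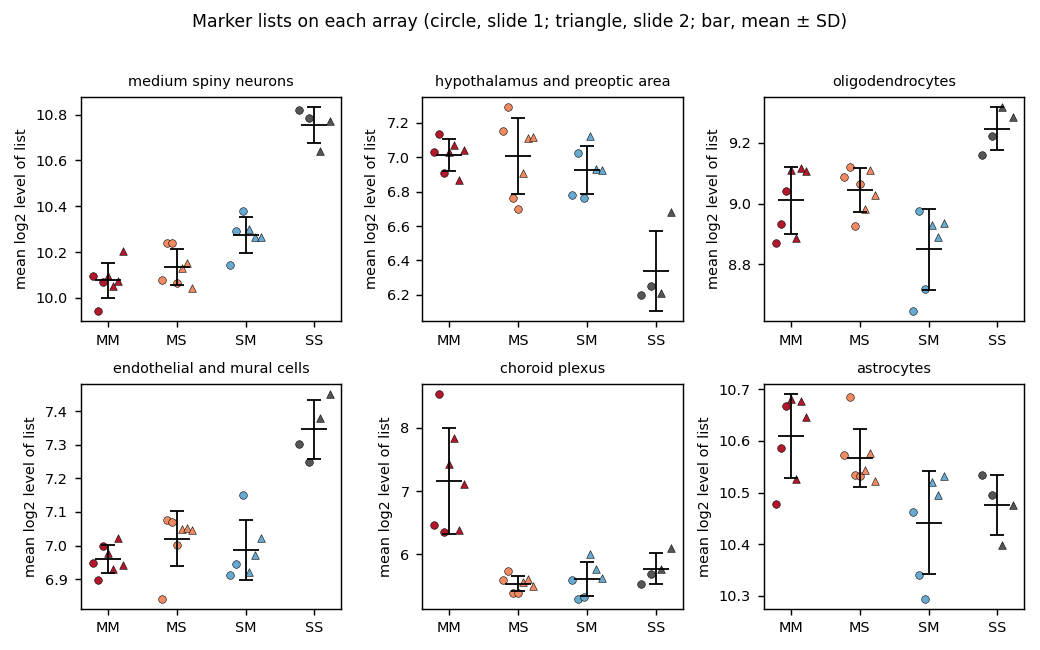
Mean log2 level of each marker list (y axis) on every array of the MM, MS, SM and SS groups (x axis), with circles for slide 1, triangles for slide 2 and bars for the mean ± SD. The medium spiny, oligodendrocyte and endothelial lists sit highest in SS, the hypothalamic list sits lowest in SS, and the choroid plexus list is highest in MM, at 6.36 to 8.53.

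Against SS, 6 members were higher in MM (14.3% of 42) and 8 were lower (19%), where 11.0% and 11.5% of all tested probes were called higher and lower. The 6 include Ntn1, which was above background on no SS array. In MS, 3 were higher (7.14%) and 7 lower (16.7%), against 8.80% and 9.23% of all probes. In SM, 3 were higher (7.14%) and 7 lower (16.7%), against 6.07% and 7.59% of all probes. The members' median log2 difference was -0.02 in MM, -0.04 in MS and -0.02 in SM, and it was 0.00 to 0.01 over all tested probes. The median size of the difference, sign aside, was 0.18, 0.17 and 0.18 for members and 0.15, 0.13 and 0.13 for all probes. No test of the members' shares against those of all probes was made.

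**Figure D2:**
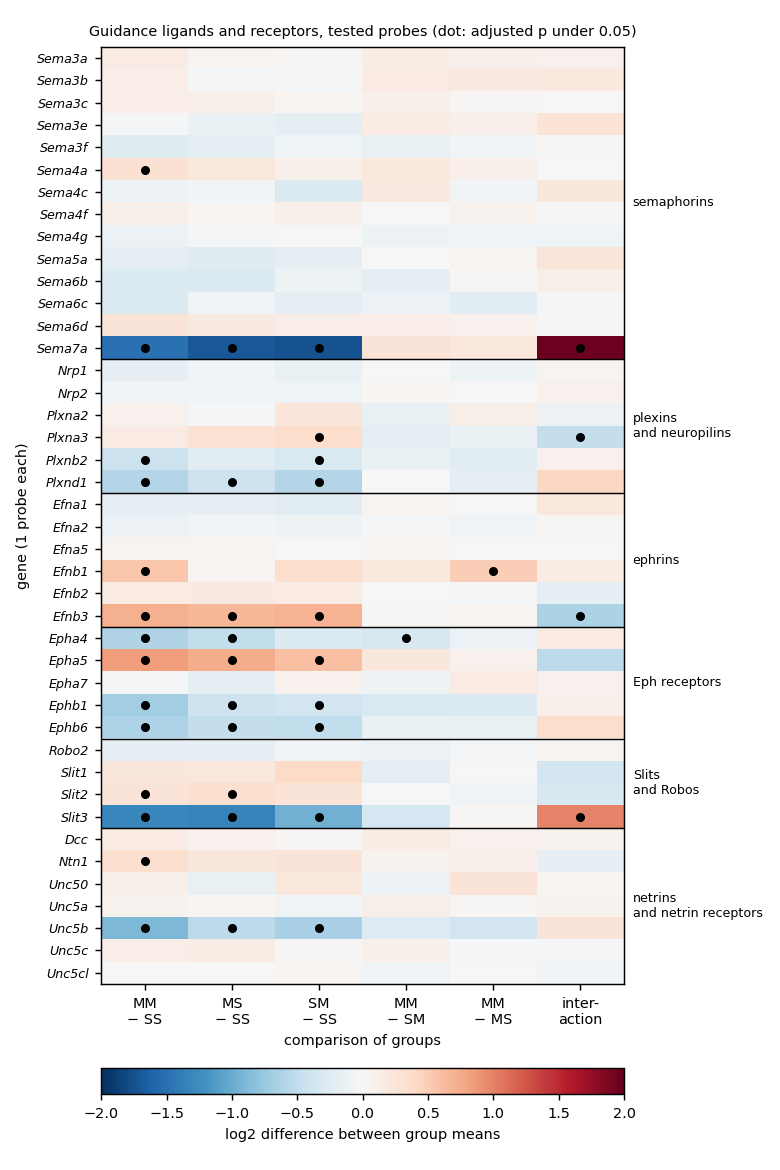
Log2 difference between group means (colour) of each of the 42 tested members (rows, by family) in the 6 comparisons (columns), with a dot where limma's adjusted p was under 0.05. Sema7a and Slit3 carry the darkest blue in the 3 comparisons with SS, and few dots stand in the columns MM − SM and MM − MS.

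Among the semaphorins, 17 genes were on the array and 14 were tested. Sema7a, a membrane-anchored semaphorin that binds plexin C1 and integrins and promotes axon outgrowth, had the largest difference of any member (probe ILMN_1374790). Its log2 level was lowest, median and highest at 7.86, 8.09 and 8.40 in MM, at 7.61, 7.93 and 8.14 in MS and at 7.61, 7.93 and 8.02 in SM, and its 4 SS arrays read 9.18, 9.56, 9.80 and 9.94. Each of the 20 arrays with METH at either injection thus lay below each SS array. In the deposited intensities the ranges were 221.1 to 307.5 units in MM, 200.8 to 269.7 in MS, 197.3 to 285.7 in SM and 625.5 to 795.6 in SS, so the gap was there before any scaling. Sema7a fell 2.82-fold in MM (log2 difference -1.49 ± 0.13, SE, limma adjusted p = 3.88e-09), 3.25-fold in MS (-1.70 ± 0.13, adjusted p = 4.46e-10) and 3.36-fold in SM (-1.75 ± 0.13, adjusted p = 9.69e-10). Within slide 1 the differences were -1.26, -1.49 and -1.50, and within slide 2 they were -1.73, -1.90 and -2.00, each still called.

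Sema4a, a transmembrane semaphorin best known from the immune system, was the other semaphorin called. It had 9.71, 9.81 and 9.92 in MM as lowest, median and highest log2 level, 9.42, 9.70 and 9.86 in MS, 9.41, 9.58 and 9.78 in SM, and 9.25, 9.50, 9.56 and 9.66 on the SS arrays. All MM arrays lay above all SS arrays, while MS and SM overlapped SS. The difference was 0.31 ± 0.09 in MM (adjusted p = 0.00933), 0.21 ± 0.09 in MS (adjusted p = 0.101) and 0.09 ± 0.09 in SM (adjusted p = 0.545). Without SS 1, the lowest SS array, the MM difference was 0.23 with an adjusted p of 0.0578, and within slides 1 and 2 it was 0.45 and 0.18 (adjusted p = 0.0937 and 0.231). The other 12 tested semaphorins, among them the secreted class 3 genes Sema3a, Sema3b, Sema3c, Sema3e and Sema3f, passed no comparison.

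**Figure D3:**
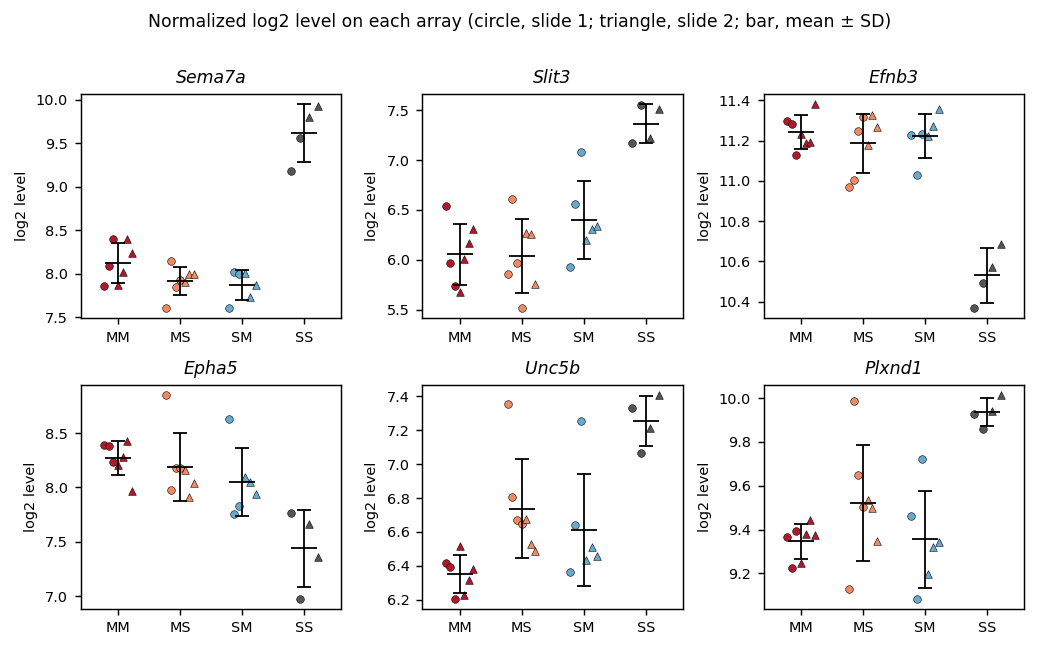
Normalized log2 level (y axis, not from 0) of 6 members on every array of MM, MS, SM and SS (x axis), with circles for slide 1, triangles for slide 2 and bars for the mean ± SD. For Sema7a, Slit3 and Efnb3 no array of the other groups reaches the range of SS. The share of all tested probes that separate in this way was not counted.

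Of the semaphorin receptors, Plxnd1, Plxnb2 and Plxna3 were called and Nrp1, Nrp2 and Plxna2 were not. Plxnd1, the receptor of Sema3e that in mice shapes synapses onto medium spiny neurons of the direct pathway, was lower in all 3 groups. Its log2 levels ran over 9.22, 9.37 and 9.44 (lowest, median, highest) in MM, 9.13, 9.50 and 9.99 in MS and 9.08, 9.33 and 9.72 in SM, against 9.93, 9.86, 9.94 and 10.02 on the SS arrays. MM and SM lay below all SS arrays, and 1 MS array lay within their range. The differences were -0.59 ± 0.11 in MM (adjusted p = 0.000423), -0.41 ± 0.11 in MS (adjusted p = 0.0114) and -0.58 ± 0.12 in SM (adjusted p = 0.00121). Within slide 1 they were -0.56, -0.33 and -0.47, none called (adjusted p = 0.202, 0.544 and 0.443), and within slide 2 they were -0.62, -0.52 and -0.69, all called. None of the 3 was called with the authors' unscaled matrix (adjusted p = 0.108, 0.379 and 0.275), and the MS call was also lost with arrays scaled to one median (adjusted p = 0.0562). Its ligand Sema3e differed by -0.03 ± 0.10, -0.13 ± 0.10 and -0.18 ± 0.10, none of them called.

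Plxnb2, a receptor of class 4 semaphorins, had 7.34, 7.42 and 7.59 in MM (lowest, median, highest log2 level), 7.52, 7.63 and 7.77 in MS, 7.35, 7.57 and 7.78 in SM, and 8.04, 7.80, 7.62 and 8.03 on the SS arrays. Only MM lay wholly below SS. Plxnb2 fell by 0.44 in MM (SE 0.09, adjusted p = 0.000482) and by 0.30 in SM (SE 0.09, adjusted p = 0.0233). In MS the difference was -0.23 ± 0.09, with an adjusted p of 0.070. The SM call was lost without SS 1 (-0.25, adjusted p = 0.0778), SM 2 (-0.26, adjusted p = 0.0568) or SS 4 (-0.25, adjusted p = 0.113). Within slide 1 the MM difference was -0.48 and that of SM -0.33 (adjusted p = 0.0916 and 0.402), and within slide 2 they were -0.39 and -0.27 (adjusted p = 0.0263 and 0.144). With the authors' unscaled matrix they were -0.37 and -0.10 (adjusted p = 0.344 and 0.799).

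Plxna3, which pairs with neuropilins for class 3 semaphorins, was the plexin that ran upward. Its levels were 5.42, 5.79 and 6.01 in MM, 5.61, 5.79 and 6.11 in MS, 5.68, 5.88 and 6.13 in SM, and 5.61, 5.44, 5.54 and 5.60 on the SS arrays. Only SM lay wholly above SS, with a difference of 0.35 ± 0.12 (adjusted p = 0.0417). MM differed by 0.16 ± 0.11 (adjusted p = 0.323) and MS by 0.29 ± 0.11 (adjusted p = 0.0746). The SM call was lost on leaving out any of 7 of the 24 arrays in turn (SM 1, SM 3, SM 4, SM 5, SS 2, SS 3 or SS 4), with an adjusted p of up to 0.122, and within either slide (0.46 and 0.24, adjusted p = 0.371 and 0.173).

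Of the 7 ephrins, 6 were tested and the B ephrins Efnb3 and Efnb1 were called, both higher. Efnb3, a transmembrane ephrin known as a midline barrier to spinal axons, had 11.13, 11.23 and 11.38 in MM (lowest, median, highest log2 level), 10.97, 11.25 and 11.33 in MS and 11.03, 11.23 and 11.36 in SM, against 10.37, 10.49, 10.57 and 10.69 on the SS arrays. The groups did not overlap SS at all, and they overlapped each other nearly throughout. Efnb3 rose 1.64-fold in MM (0.71 ± 0.08, adjusted p = 3.42e-07), 1.58-fold in MS (0.66 ± 0.08, adjusted p = 1.43e-06) and 1.62-fold in SM (0.69 ± 0.08, adjusted p = 1.70e-06). Within slide 1 it was higher by 0.80, 0.70 and 0.73, and within slide 2 by 0.62, 0.63 and 0.65, each called.

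Efnb1, the ephrin whose human gene is mutated in craniofrontonasal syndrome, followed another order. It had 7.05, 7.32 and 7.43 in MM, 6.13, 6.81 and 7.13 in MS and 6.95, 7.05 and 7.16 in SM, and 6.29, 6.94, 6.80 and 6.80 on the SS arrays. The MM and SM arrays all lay above SS, by a margin under the last digit for the lowest SM array, and MS spanned the SS range. The difference was 0.56 ± 0.13 in MM (adjusted p = 0.00317), 0.06 ± 0.13 in MS (adjusted p = 0.809) and 0.35 ± 0.14 in SM (adjusted p = 0.0968). For MM it was 0.77 within slide 1 (adjusted p = 0.0664) and 0.38 within slide 2 (adjusted p = 0.0289). Efna1, Efna2, Efna5 and Efnb2 passed no comparison.

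Among the 5 tested Eph receptors, Epha5 was higher and Epha4, Ephb1 and Ephb6 were lower, and Epha7 passed no comparison. Epha5, a receptor of the A ephrins, had 7.96, 8.28 and 8.43 in MM, 7.92, 8.16 and 8.85 in MS, 7.75, 7.99 and 8.63 in SM, and 7.77, 6.98, 7.66 and 7.36 on the SS arrays. MM and MS lay wholly above SS, and 1 SM array fell just under the highest SS array. Epha5 rose 1.78-fold in MM (0.83 ± 0.16, adjusted p = 0.000454), 1.68-fold in MS (0.75 ± 0.16, adjusted p = 0.00159) and 1.52-fold in SM (0.61 ± 0.17, adjusted p = 0.0149). Without SS 2, its lowest SS array, the SM difference was 0.45 with an adjusted p of 0.0945, and within slide 1 none of the 3 was called (adjusted p = 0.0947, 0.101 and 0.368) although the differences were 0.97, 0.93 and 0.70. Within slide 2 they were 0.71, 0.53 and 0.52, all called.

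Epha4, which binds both A and B ephrins, had 11.16, 11.30 and 11.41 in MM, 11.16, 11.44 and 11.59 in MS and 11.51, 11.55 and 11.81 in SM, against 12.20, 11.90, 11.78 and 11.66 on the SS arrays. MM and MS lay below SS without overlap, and SM overlapped SS. The difference was -0.60 ± 0.09 in MM (adjusted p = 3.29e-05), -0.49 ± 0.09 in MS (adjusted p = 0.000464) and -0.27 ± 0.10 in SM (adjusted p = 0.0647). Within slide 1, MM and MS differed from SS by -0.70 and -0.58, and within slide 2 by -0.48 and -0.42, all called. With the authors' unscaled matrix they differed by -0.57 and -0.44, neither called (adjusted p = 0.120 and 0.289).

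Ephb1, a receptor of the B ephrins, had 7.83, 8.08 and 8.34 in MM, 8.19, 8.32 and 8.61 in MS and 8.18, 8.35 and 8.56 in SM, and 8.81, 8.56, 8.57 and 9.06 on the SS arrays. The step was largest in MM (-0.69 ± 0.10, adjusted p = 2.18e-05), at 1.61-fold lower than SS, with MS at -0.41 ± 0.10 (adjusted p = 0.0065) and SM at -0.39 ± 0.11 (adjusted p = 0.0157). Without SS 4, its highest array, the MS difference was -0.31 (adjusted p = 0.0571) and the SM difference -0.29 (adjusted p = 0.110), while that of MM stayed called. Within slide 1 the differences in MM, MS and SM were -0.73, -0.32 and -0.28, with MM alone called (adjusted p = 0.0271, 0.387 and 0.590), and within slide 2 they were -0.68, -0.51 and -0.50, all called.

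Ephb6, an Eph receptor that lacks kinase activity, had 5.82, 6.03 and 6.13 in MM, 5.81, 6.20 and 6.41 in MS and 5.96, 6.12 and 6.42 in SM, and 6.38, 6.42, 6.76 and 6.96 on the SS arrays. Only MM lay wholly below SS. Ephb6 fell by 0.62 in MM (SE 0.12, adjusted p = 0.000315), by 0.48 in MS (SE 0.12, adjusted p = 0.00482) and by 0.49 in SM (SE 0.12, adjusted p = 0.00677). Within slide 1 the differences in MM, MS and SM were -0.41, -0.20 and -0.19, none called (adjusted p = 0.197, 0.622 and 0.728), and within slide 2 they were -0.84, -0.77 and -0.79, all called. None of the 3 was called with the authors' unscaled matrix (adjusted p = 0.070, 0.280 and 0.331). Without SS 4 the SM difference was -0.38, with an adjusted p of 0.0522.

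**Figure D4:**
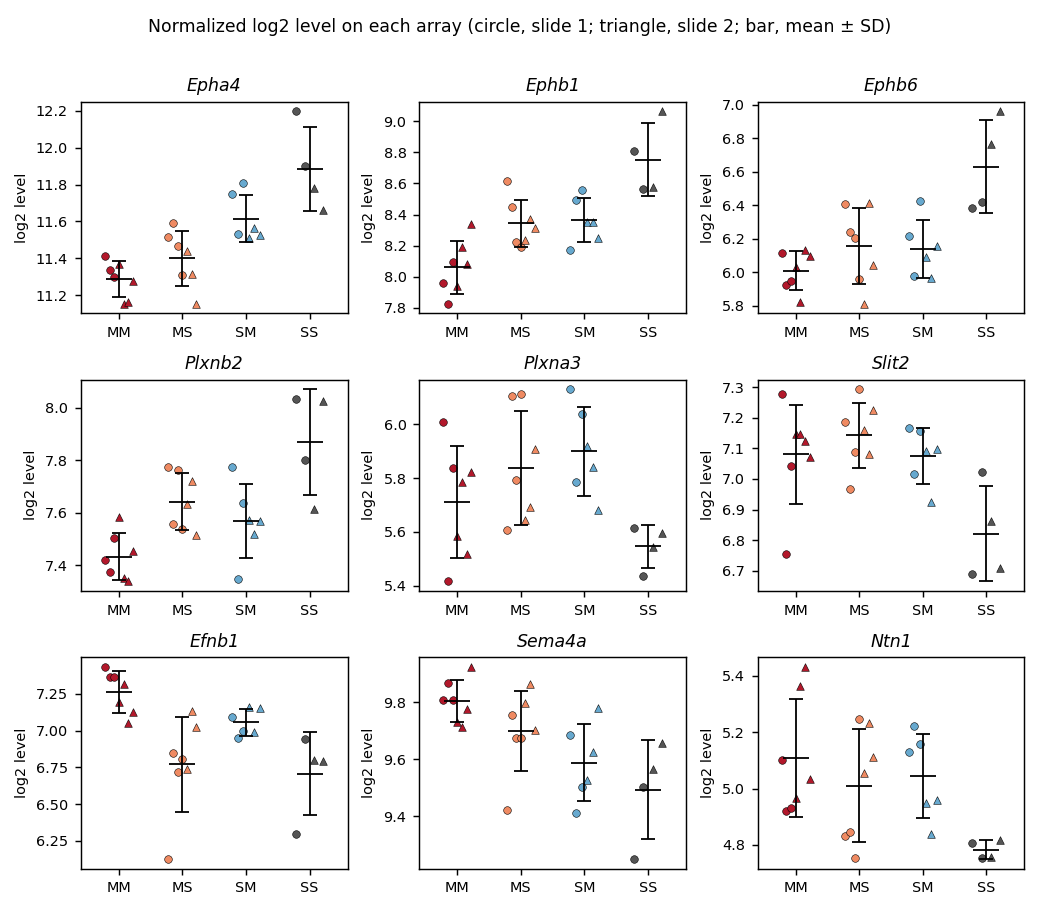
Normalized log2 level (y axis, not from 0) of the other 9 called members on every array of MM, MS, SM and SS (x axis), with circles for slide 1, triangles for slide 2 and bars for the mean ± SD. The group means of Epha4, Ephb1 and Ephb6 are lowest in MM and highest in SS, and that of Efnb1 is highest in MM.

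Of the Slits and Robos, 4 of 6 genes were tested. Slit3, a secreted ligand of Robo receptors, had 5.68, 6.01 and 6.54 in MM (lowest, median, highest log2 level), 5.52, 5.97 and 6.61 in MS and 5.93, 6.33 and 7.08 in SM, against 7.18, 7.56, 7.22 and 7.51 on the SS arrays. No METH array reached the lowest SS array, although the SM array at 7.08, which is SM 3, came close. As deposited, its intensity was 34.4 to 78.0 units in MM, 26.7 to 83.0 in MS, 55.4 to 94.7 in SM and 114.1 to 162.6 in SS. Slit3 fell 2.48-fold in MM (-1.31 ± 0.19, adjusted p = 1.31e-05), 2.52-fold in MS (-1.33 ± 0.19, adjusted p = 1.23e-05) and 1.95-fold in SM (-0.96 ± 0.20, adjusted p = 0.00127). Within slide 1 the differences were -1.29, -1.38 and -0.85 with adjusted p = 0.054, 0.0345 and 0.339, and within slide 2 they were -1.32, -1.27 and -1.08, all called.

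Slit2 moved the other way and by less. Its levels were 6.76, 7.13 and 7.28 in MM, 6.97, 7.16 and 7.29 in MS and 6.93, 7.09 and 7.17 in SM, and 6.69, 7.02, 6.86 and 6.71 on the SS arrays, so that every group overlapped SS. It rose by 0.26 ± 0.09 in MM (adjusted p = 0.0298) and by 0.32 ± 0.09 in MS (adjusted p = 0.00909), and differed by 0.25 ± 0.09 in SM (adjusted p = 0.0567). The MM call was lost on leaving out SS 1, SS 4, MM 1, MM 4 or MM 5 (adjusted p up to 0.110), and also without the 3 arrays of low weight. Within slide 1 the differences in MM and MS were 0.17 and 0.28 (adjusted p = 0.670 and 0.468), and within slide 2 they were 0.34 and 0.37, both called. Slit1 and the receptor Robo2 passed no comparison, with differences from SS of 0.22 ± 0.16, 0.21 ± 0.16 and 0.39 ± 0.17 for Slit1 and of -0.20 ± 0.15, -0.16 ± 0.15 and -0.09 ± 0.15 for Robo2 in MM, MS and SM.

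Netrin 1 was near the floor of the arrays. Ntn1 was above background on all 7 MM arrays, 4 of 7 MS arrays, 5 of 6 SM arrays and none of the 4 SS arrays, where it read 4.81, 4.75, 4.76 and 4.82. Its MM levels were 4.92, 5.03 and 5.43 as lowest, median and highest. Since SS gives a bound alone, the MM mean of 5.11 was at least 1.13-fold higher than SS, which had a measured mean of 4.78 (adjusted p = 0.031). This bound sets the mean of MM against, on each SS array, the higher of the probe's own value and the lowest signal among probes above background. The call was lost on leaving out SS 2, SS 3, SS 4, MM 5 or MM 6, with an adjusted p of up to 0.073, and within slide 1 (adjusted p = 0.531).

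Unc5b, a repulsive netrin receptor also known from blood vessels, had 6.21, 6.38 and 6.52 in MM, 6.49, 6.67 and 7.36 in MS and 6.36, 6.48 and 7.26 in SM, against 7.33, 7.07, 7.22 and 7.41 on the SS arrays. MM lay wholly below SS, and MS and SM did so but for 1 array each, MS 1 and SM 3, which are among the arrays of low weight. Unc5b fell 1.87-fold in MM (-0.90 ± 0.14, adjusted p = 3.49e-05), 1.43-fold in MS (-0.52 ± 0.14, adjusted p = 0.0111) and 1.56-fold in SM (-0.65 ± 0.15, adjusted p = 0.0035). Without the 3 arrays of low weight the differences were -0.88, -0.60 and -0.75 (adjusted p = 7.77e-08, 2.78e-05 and 3.16e-06), and without SS 4 alone the MS difference was -0.47 (adjusted p = 0.0503). Within slide 1 they were -0.86, -0.33 and -0.45, none called (adjusted p = 0.0751, 0.602 and 0.561), and within slide 2 they were -0.95, -0.75 and -0.85, all called. Dcc, the attractive netrin receptor, differed from SS by 0.16 ± 0.16 in MM, 0.08 ± 0.16 in MS and 0.02 ± 0.16 in SM, and Unc5a and Unc5c likewise passed no comparison.

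Comparisons without the SS arrays set side by side groups that share METH at 1 injection and differ in the other. MM also stood apart from both in choroid plexus markers. That list averaged 6.36 to 8.53 in MM, 5.39 to 5.73 in MS and 5.30 to 6.01 in SM. Of its 4 tested genes, Ttr alone was called, higher in MM by 5.01 than in SM and by 5.44 than in MS (limma adjusted p = 1.96e-05 and 1.14e-06). The part of this in the members' results was not tested. For MM against SM, which differ in the first injection, 1 of 42 members was lower and none was higher, where 0.641% of all probes were called in each direction. The 1 was Epha4, at -0.33 ± 0.08 (limma adjusted p = 0.0487), and all 7 MM arrays lay below all 6 SM arrays. That call was lost in 18 of the 24 fits that left out 1 array, with an adjusted p of up to 0.107 and a difference of -0.29 without SM 3, and within either slide alone (-0.35 and -0.29, adjusted p = 0.563 and 0.229). At an unadjusted p under 0.05 (limma), 5 of the 42 members differed, as did 2078 of all 12956 tested probes.

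For MM against MS, which differ in the second injection, 1 member was higher and none was lower, where 0.656% and 0.471% of all probes were called. Efnb1 was 1.41-fold higher (0.49 ± 0.11, limma adjusted p = 0.0262), with 5 of 7 MM arrays above all MS arrays. The lowest MS array was MS 1, at 6.13, and without the 3 arrays of low weight the difference was 0.39 (adjusted p = 0.00635). It was lost on leaving out MM 1, MM 2, MM 3, MM 5 or MS 3 (adjusted p up to 0.0666), and was 0.76 within slide 1 and 0.21 within slide 2, neither called. At an unadjusted p under 0.05 (limma), 7 of the 42 members differed, as did 1695 of all 12956 tested probes.

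MS against SS and MM against SM share no arrays, and so their values can be read side by side. Of the 10 members called in MS against SS, 9 had the same sign in MM against SM, as had 66.9% of the 2336 probes called in MS against SS. Sema7a was the exception, at -1.70 in MS against SS and 0.25 ± 0.11 in MM against SM (adjusted p = 0.274). The median size was 0.50 in MS against SS, and the median of the same members in MM against SM, signed by that direction, was 0.18. Over all probes called in MS against SS the 2 medians were 0.445 and 0.067. Picking genes by a call in MS against SS by itself favours a smaller value in the other comparison. For the second injection, 7 of the 10 members called in SM against SS had the same sign in MM against MS, as had 54.6% of the 1770 probes called. The exceptions were Sema7a (0.21 ± 0.11 in MM against MS), Slit3 (0.02 ± 0.16) and Plxna3 (-0.13 ± 0.10), none of which was called there.

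**Figure D5:**
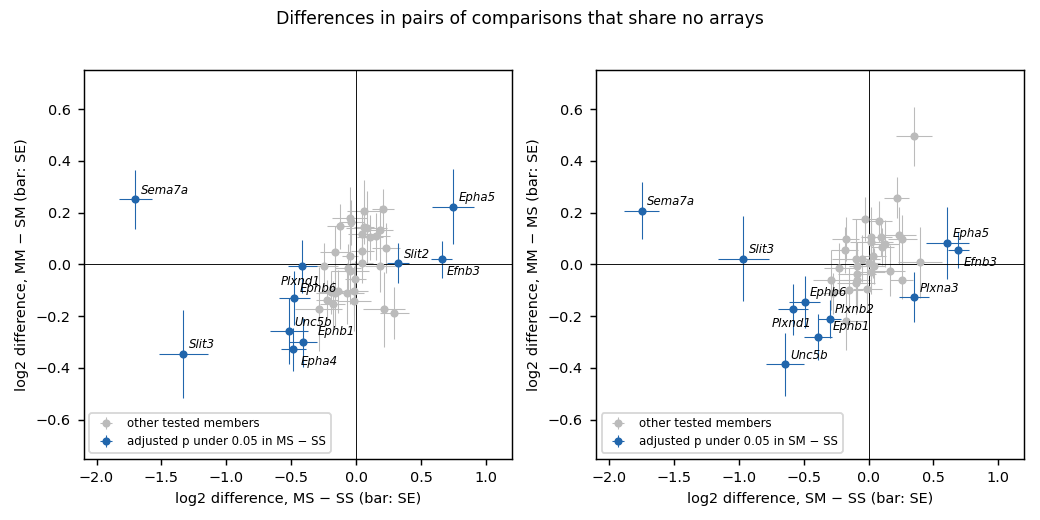
Log2 difference of the 42 tested members in MM − SM against that in MS − SS (left) and in MM − MS against that in SM − SS (right), with bars for the SE. Members called on the x axis are named in blue, and nearly all of them lie closer to 0 on the y axis than on the x axis. Picking them by a call on the x axis favours this by itself.

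The interaction, MM against MS minus SM against SS, was called for 2 members upward and 2 downward, where 4.16% and 3.51% of all probes were called. A positive value here means that a gene stood lower in SM than in SS and not, or less, in MM than in MS. Sema7a had 1.95 ± 0.17 (adjusted p = 2.81e-08) and Slit3 0.99 ± 0.26 (adjusted p = 0.0159). Efnb3 had -0.64 ± 0.11 (adjusted p = 0.000432) and Plxna3 -0.48 ± 0.15 (adjusted p = 0.0483). The value of Sema7a stayed called within each slide, at 1.73 and 2.16. Those of Efnb3 and Slit3 were -0.63 and 0.93 within slide 1 (adjusted p = 0.235 and 0.58) and -0.66 and 1.03 within slide 2, where both were called. With the authors' unscaled matrix neither was called (limma adjusted p = 0.0565 and 0.219). Plxna3 lost its call in 16 of the 24 fits without 1 array, with an adjusted p of up to 0.106 (without SS 2). The 4 SS arrays enter this difference too.

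The 27 tested members called nowhere were picked by that lack of calls, which by itself favours small differences. Among them Efna5, Sema3c, Unc5cl and Sema3a were above background on only 4, 5, 5 and 6 arrays. Uncalled probes in general were not looked at in this way. The differences of the 27 from SS ran over -0.29 to 0.26 in MM, -0.29 to 0.21 in MS and -0.29 to 0.39 in SM. The 95% interval of the difference lay inside a change of 1.5-fold for 26 of the 27 in each of these comparisons, the other being Sema6b in MM and MS and Slit1 in SM. In MM against SM and in MM against MS it did so for all 27. For the interaction it did so for 24, the others being Sema4c, Sema6b and Slit1. These log2 values carry an offset of 16 units, which shrinks differences between signals of that size or less. For members near the floor, an interval inside 1.5-fold therefore cannot exclude a larger change in signal. Sema6d, for example, read 0.7 to 20.4 units in SS and 12.6 to 20.9 in MM, yet its interval lay inside. The other 13 probes, those of Epha2, Epha10, Ephb2, Ephb3, Efna4, Unc5d (both probes), Sema3d, Sema3g, Sema5b, Robo3, Robo4 and a second one of Sema5a, were above background on 0 to 3 arrays and were not tested, so that they give no level to compare. Of the 42 tested, 28 were above background on all 24 arrays.

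Genes inside the cell that carry these signals were looked up from a list. Of 53 such partners 40 were tested, and 6 were higher and 6 lower in MM than in SS (15% and 15%, against 11.0% and 11.5% of all tested probes), 8 and 6 in MS (20% and 15%, against 8.80% and 9.23%), and 3 and 2 in SM (7.5% and 5%, against 6.07% and 7.59%). The 6 higher in MM were Crmp1, Pak1, Pak3, Limk1, Rock1 and Chn2, and the 6 lower were Nfatc4, Dpysl5, Fyn, Gsk3b, Ppp3ca and Nck2. Called in all 3 groups were Crmp1, Rock1 and Pak3, which were higher, and Nfatc4 and Fyn, which were lower. Crmp1, which relays semaphorin signals to microtubules, was higher by 0.67 in MM (adjusted p = 7.13e-06), 0.56 in MS (9.02e-05) and 0.45 in SM (0.00187). Nfatc4, a calcineurin-dependent transcription factor, fell by 0.74 in MM (adjusted p = 0.000369), 0.57 in MS (0.0055) and 0.66 in SM (0.00274). Fyn, a kinase downstream of several guidance receptors, fell by 0.36 in MM (adjusted p = 0.0106), 0.31 in MS (0.0287) and 0.40 in SM (0.00995). Of the regulators of actin, Limk1 and Pak1 were called in MM and MS, while Limk2, Rock2, Rhoa, Rac1, Cdc42 and Cfl1 were called in none of the 3 comparisons.

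Of 49 other guidance cues, receptors and adhesion partners 32 were tested, and 5 were higher and 1 lower in MM (15.6% and 3.12%), 2 and 3 in MS (6.25% and 9.38%), and 2 and 2 in SM (6.25% and 6.25%), beside the same shares of all probes. Whether either list differed from all probes was not tested. Higher in all 3 groups were Gpc3 and Ntng1. Gpc3, the cell-surface proteoglycan glypican 3, was higher by 0.76 in MM (adjusted p = 4.57e-07), 0.95 in MS (1.75e-08) and 0.84 in SM (3.69e-07), with an interaction of -1.03 (2.54e-06). Ntng1, the membrane-anchored netrin G1, was higher by 0.71 in MM (adjusted p = 0.000169), 0.64 in MS (0.000646) and 0.59 in SM (0.00276). In MM the others were Cntn1, Timp3 and Wnt5a, higher, and Mag, lower. In MS Flrt1, Lingo1 and Rtn4r were lower, and in SM Flrt1 and Mag. The list median was -0.01 in MM, -0.04 in MS and -0.04 in SM, and that of the intracellular partners 0.04, -0.02 and -0.01.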

How the data were processed

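The deposited labels placed 24 samples in the groups MM, MS, SM and SS and gave the slide of each array (2 slides). The authors made the intensities with BeadStudio. They are background-subtracted (lowest -21), with no scaling between arrays. The deposited detection values hold 1 minus the detection p-value, but their order does not follow the intensities (Spearman -0.00699 to 0.000247 per array), so they were sorted and assigned by rank within each array. The authors' matrix of log2 values was found to hold the same intensities, floored at 1 and centred on each probe's median, and served as an alternative. The array normalization and test are not given in the sources used here.

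Background correction and normalization used neqc of limma 3.58.1 under R 4.3.3 (offset 16, quantile normalization), after which arrays correlated at 0.948 to 0.977 (Spearman). The test took in 12956 of 22523 probes, those detected (p under 0.05) on 4 or more arrays. A linear model with 1 mean per group was fitted to all 24 arrays, with empirical Bayes moderation and Benjamini-Hochberg adjustment over all tested probes, for 6 comparisons. The number of arrays limits the precision, with a median 95% interval of ± 0.22 (log2) for a member in MM against SS. The steps were tested on simulated data. Symbols came from the platform's annotation, and 52 of the 53 member genes matched RefSeq. Members and lists were chosen with earlier results of these data known. Named with values is every member called in at least 1 comparison. Figures were drawn with matplotlib 3.10.9.

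Alternatives were other background corrections, scaling and filters, the series matrix values, slide as a block or alone, array weights, leaving out arrays of weight under 0.5 or each array in turn, and calls above 1.8-fold with an unadjusted p under 0.01. Numbers in sample names run within a group and pair no samples. Protein sequences and probe sequences were not used here.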

Additional observations from a re-analysis of the deposited data

Results flagged for a closer look

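On single arrays, 60 groups of values (15 members by 4 groups) were searched for a sample far from the rest of its group, and 5 were found, where chance gives about 1 in 20. Of these, 4 lay on MS 1 and 1 on SM 3, arrays of low weight. On MS 1, Epha5 read 8.85 (the other MS arrays 7.92 to 8.18), Unc5b 7.36 (6.49 to 6.80), Efnb1 6.13 (6.72 to 7.13) and Sema4a 9.42 (9.67 to 9.86). On SM 3, Unc5b read 7.26, and the other SM arrays 6.36 to 6.64.

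By limma's interaction term, MM against MS differed from SM against SS for 4 members, 2 upward and 2 downward. Of all tested probes, 4.16% and 3.51% were called upward and downward. The values were 1.95 for Sema7a (adjusted p = 2.81e-08), 0.99 for Slit3 (0.0159), -0.64 for Efnb3 (0.000432) and -0.48 for Plxna3 (0.0483). Plxna3 lost its call under 24 of 35 alternatives. The 4 SS arrays enter each of these values.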

How the results depend on the processing

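No direction was reversed in 1399 checks of the 40 called values of named members under the alternatives. A call was kept in 1253 of them and lost in 146. Sema7a in all 4 of its comparisons, Efnb3 against SS in MM, MS and SM, Slit3 in MS and Ephb1 in MM (both against SS) kept their calls under every alternative run for single genes. Members called numbered 14 in MM against SS, 10 in MS against SS, 10 in SM against SS, 1 in MM against SM, 1 in MM against MS and 4 for the interaction. In the same order they were 8, 3, 3, 0, 0 and 1 with the series matrix values, 4, 4, 2, 0, 0 and 1 within slide 1, and 3, 2, 2, 0, 0 and 2 at 1.8-fold with an unadjusted p under 0.01. MM against SM gave 0 with arrays scaled to one median, without a filter and within slide 2. MM against MS gave 0 without a filter and within slide 2, 3 with array weights and 2 without the arrays of low weight, where the interaction gave 8. Leaving out 1 array gave 0 to 1 members in MM against SM and 0 to 2 in MM against MS, and no count outside 1.5 times the value elsewhere. Slide as a block gave 14, 10, 11, 1, 1 and 3. Shares of all tested probes called under the alternatives were not counted beside these. The series matrix is not scaled between arrays, and its median difference over all probes was 0.13 in MM against SS, 0.14 in MS against SS and 0.25 in SM against SS, so that changes there stand on top of that shift. Beyond the losses given above, it lost the calls against SS of Epha5, Ephb1 and Unc5b in MS and SM. So it did for Slit2 in MM and MS, Slit3 and Plxna3 in SM, and Sema4a in MM. Also lost there were Epha4 in MM against SM, Efnb1 in MM against MS and the interaction of Plxna3. Scaling to one median lost Epha5, Ephb1 and Plxnb2 in SM, and Sema4a and Ntn1 in MM, all against SS, and the interaction of Plxna3. Within slide 1 only 2 SS arrays enter. No paired analysis was possible because the labels share no replicate numbers between groups. Low signals limit the 13 probes not tested, Ntn1 and other tested members near the floor. Among the latter, Efna5, Sema3c, Unc5cl and Sema3a were above background on 4, 5, 5 and 6 arrays. The cause of the other losses was not tested.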
